A study of Homo sapiens with 2 samples.

Results

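NRF2, encoded by NFE2L2, and 8 of its target genes for redox reactions and NADPH supply (TXNRD1, SRXN1, NQO1, OSGIN1, PGD, TALDO1, TKT and ME1) were followed by RNA-seq in Hep3B cells, a line established from a human hepatocellular carcinoma. The 9 genes were taken by symbol from a table of 11511 genes with values, and all 9 were found. They were chosen with earlier results of these data known. Their shares and places beside other genes are therefore descriptions and not independent comparisons. The tested cells received A4368, a compound known here only by its code, at 25 µM for 24 h, and the control cells had no treatment. Both were grown in DMEM with serum. There was 1 library of each, so no value below has an error from repeated cultures, no test was possible and each difference is one between these 2 libraries. The values are FPKM, which scale the fragments sequenced from a transcript to its length and to the size of the library, and their depth is unknown. Ratios are log2 of the A4368 value over the control value after 1 FPKM was added to each, which makes differences of low genes look smaller than they are, and a fold in words is the plain ratio of the FPKM values.

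NRF2 is a transcription factor that cells make and destroy continuously. KEAP1, a sensor with reactive cysteines, holds it for ubiquitination by a CUL3 ligase. When oxidants or electrophiles modify KEAP1, NRF2 escapes, pairs with a small MAF protein and binds the antioxidant response element of its target genes. Much of this control acts on the NRF2 protein, which RNA-seq does not measure. Of the targets followed here, TXNRD1, SRXN1 and NQO1 encode enzymes that reduce proteins and quinones. PGD and ME1 make NADPH from 6-phosphogluconate and malate, TALDO1 and TKT recycle the sugars formed on the way, and OSGIN1 restrains growth. The liver uses the pathway in handling reactive metabolites of drugs and other foreign compounds.

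The libraries had the expression of hepatoma cells. All 8 hepatocyte and hepatoma markers had values, with a sum of 12164 FPKM in the A4368 library and 12636 FPKM in the control library. Most of each sum was ALB, at 8930 FPKM with A4368 and 9183 FPKM in the control. None of 4 endothelial markers had a value, 1 of 5 stellate and fibroblast markers did, and 3 of 5 leukocyte markers did. Those 3 leukocyte markers, CD14, CD68 and LYZ, summed to 39.9 FPKM with A4368 and 50.1 FPKM in the control, while the defining PTPRC and CD3E had no value. The part of these markers in the results was not tested.

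The promoters of the targets are shown first, because NRF2 acts through a short DNA element that can be looked for in them. RefSeq windows running from 250 bases before an annotated start to 50 after it were read on GRCh38.p14, and all 9 genes matched by symbol, with 11 windows in total, as NFE2L2 and TXNRD1 have 2 starts each. The core searched was TGACNNNGC on both strands, and the related AP-1 element was searched as TGACTCA on both strands. The motifs overlap where the letters TGACTCAGC occur. The core was present in 4 windows of 3 genes, TXNRD1, PGD and ME1. TGACTCA was present in the windows of OSGIN1 and ME1. The 250 bases before the start are printed 5′ to 3′ for these 4 genes, with the matches that lie wholly within them in capitals.
ME1, chr6:83431052-83431301, minus strand: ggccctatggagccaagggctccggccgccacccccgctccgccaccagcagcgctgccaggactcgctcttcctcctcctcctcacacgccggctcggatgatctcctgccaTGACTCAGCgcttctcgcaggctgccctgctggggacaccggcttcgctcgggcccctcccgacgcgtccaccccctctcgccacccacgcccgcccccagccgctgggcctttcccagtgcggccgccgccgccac
TXNRD1 upstream start, chr12:104215529-104215778, plus strand: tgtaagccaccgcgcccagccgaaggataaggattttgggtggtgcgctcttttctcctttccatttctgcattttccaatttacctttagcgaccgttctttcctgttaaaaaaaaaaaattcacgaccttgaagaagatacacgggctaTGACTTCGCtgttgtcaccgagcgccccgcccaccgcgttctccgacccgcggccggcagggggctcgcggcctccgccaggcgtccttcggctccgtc
TXNRD1 downstream start, chr12:104286782-104287031, plus strand: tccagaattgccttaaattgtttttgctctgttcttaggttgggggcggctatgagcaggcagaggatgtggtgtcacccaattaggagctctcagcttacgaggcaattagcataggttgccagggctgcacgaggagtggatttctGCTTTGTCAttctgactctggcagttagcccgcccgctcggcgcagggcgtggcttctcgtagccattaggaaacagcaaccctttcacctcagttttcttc
PGD, chr1:10398814-10399063, plus strand: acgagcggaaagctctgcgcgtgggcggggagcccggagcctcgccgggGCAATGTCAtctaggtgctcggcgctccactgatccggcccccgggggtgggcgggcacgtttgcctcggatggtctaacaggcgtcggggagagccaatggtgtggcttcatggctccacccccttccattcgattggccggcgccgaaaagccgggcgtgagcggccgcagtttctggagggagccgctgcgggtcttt
OSGIN1, chr16:83952990-83953239, plus strand: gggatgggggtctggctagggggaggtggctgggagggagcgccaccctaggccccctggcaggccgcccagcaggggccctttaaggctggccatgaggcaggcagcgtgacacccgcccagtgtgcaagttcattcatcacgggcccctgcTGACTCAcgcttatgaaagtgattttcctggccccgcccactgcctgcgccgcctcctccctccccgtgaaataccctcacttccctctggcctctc

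In ME1 the capitals hold both motifs at once, 137 to 129 bases before the start. In OSGIN1 they hold TGACTCA alone, 97 to 91 bases before the start. The matches of TXNRD1 lie 99 to 91 bases before its upstream start and 102 to 94 bases before its downstream start. The match of PGD lies 201 to 193 bases before the start. In PGD and at the downstream start of TXNRD1 the capitals are the reverse complement of the core. ME1 holds 1 more match of the core after the start, which is not printed. The upstream start of TXNRD1 has 1 more that runs from 8 bases before the start across it, so that all but its last letter stand at the end of the printed sequence, in lower case. No match of either motif lies in these windows of NFE2L2, SRXN1, NQO1, TALDO1 or TKT, which says only that the letters are not there. The element usually described for human NQO1 lies farther upstream than its window.

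**Figure D1:**
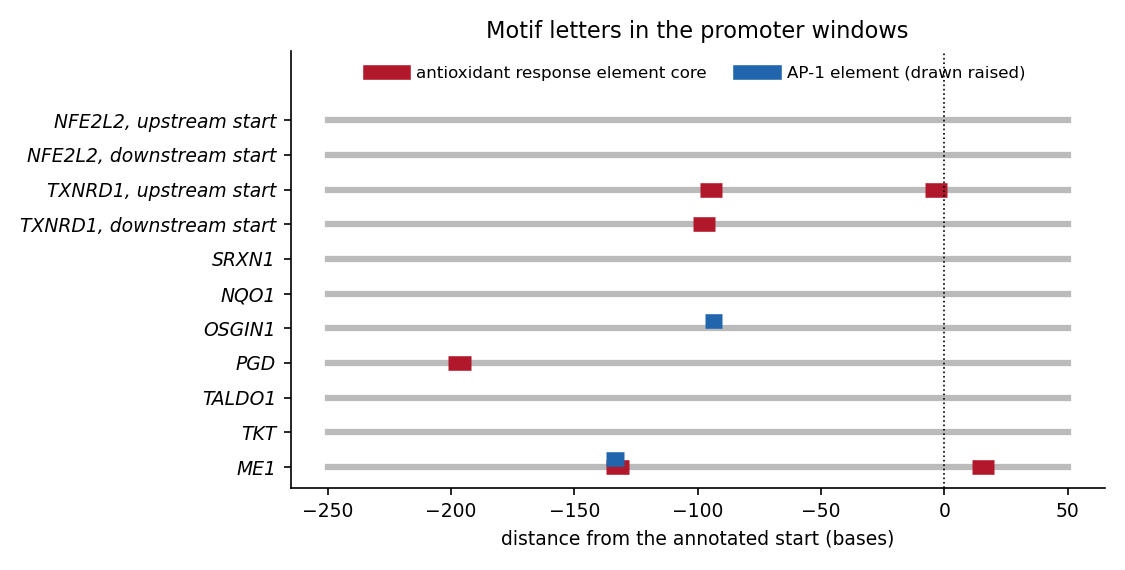
Positions of the motif letters in the 11 promoter windows, with the distance from the annotated start in bases on the x axis and 1 grey line for each window. Red marks the antioxidant response element core and blue, drawn raised, the AP-1 element. Matches are seen in 4 of the 9 genes, and in ME1 both motifs coincide.

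Such letters are common in promoters. The core occurred in 13.3% of 35116 windows and TGACTCA in 4.95%. Among 9317 genes of the table that averaged 1 FPKM or more over the libraries and had a window, 1825 (19.6%) had the core, against 3 of the 9 genes followed here. TGACTCA occurred in 415 of these genes (4.45%), against 2 of the 9. The median log2 ratio was 0.03 in the 1825 genes with the core and 0.01 in those without it, and -0.02 in the 415 genes with TGACTCA and 0.01 in those without it. A higher value with A4368 was seen in 55.1% of genes with the core and 51.6% without it. For TGACTCA these shares were 44.1% and 52.6%. The reason for the differences was not tested. A match is a description of the sequence, and none is taken here for a binding site.

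The response of the 9 genes was uneven. SRXN1, OSGIN1, ME1 and TXNRD1 stood higher in the A4368 library, by 1.60-fold, 1.48-fold, 1.34-fold and 1.22-fold. PGD was 1.08-fold higher, TALDO1 and TKT stood at 0.987 and 0.990 of their control values, and NFE2L2 and NQO1 were 1.06-fold and 1.17-fold lower. In bulk RNA, fewer cells that express a gene and less RNA per cell cannot be told apart. In all, 5 of the 9 genes had a higher value with A4368, against 52.0% of the 11238 genes that averaged 1 FPKM or more, which is near the background. After a rescaling that gave the libraries an equal total over all but the 50 most abundant genes, 7 of the 9 and 60.9% of all genes had a higher value. On the log2 scale 1 of the 9, SRXN1, was higher by at least 1.5-fold, a limit passed by 1.08% of all genes, and none was lower by 1.5-fold, as 2.12% of all genes were. At a lower limit of 0.32 log2 units, which stands for 25% more, SRXN1, OSGIN1 and ME1 were higher, against 7.31% of all genes, and none was lower, against 7.79%. At 2-fold none of the 9 was higher or lower, as 0.116% and 0.436% of all genes were. The median log2 ratio of the 9 genes was 0.10, beside 0.01 for all genes.

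**Figure D2:**
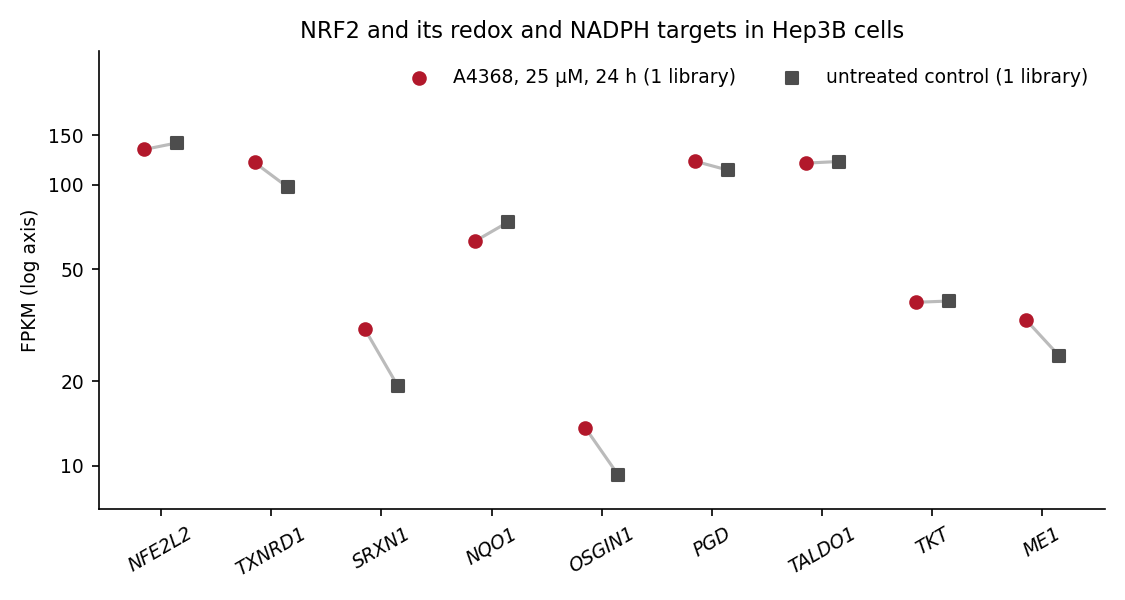
FPKM of NFE2L2 and its 8 targets on a log axis, with the A4368 library as red circles on the left of each pair and the untreated control as grey squares on the right. Each point is 1 library, so there are no error bars. SRXN1, OSGIN1, ME1 and TXNRD1 slope down toward the control, and NQO1 slopes up, to 73.7 FPKM in the control against 63.0 FPKM with A4368.

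NFE2L2 was the most abundant of the 9 in both libraries. It stood at 133.7 FPKM in the A4368 library and 141.1 FPKM in the control library, a log2 ratio of -0.08. Of 644 genes whose mean lay within 1.5-fold of its own, 280 had a ratio at least as low, so the value of NFE2L2 lay among the bulk of its neighbours. Its negative regulator KEAP1 was at 49.3 FPKM with A4368 and 54.6 FPKM in the control. The proportion of NFE2L2 to KEAP1 FPKM within a library, which no scaling of the library alters, was 2.71 with A4368 and 2.59 in the control. In GENCODE, 18.2% of the NFE2L2 words occur in other genes, most of them in AC019080.1, an overlapping gene on the same strand.

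The redox enzymes gave the widest spread. SRXN1, which encodes sulfiredoxin, the enzyme that repairs over-oxidised peroxiredoxins, was at 30.7 FPKM in the A4368 library and 19.2 FPKM in the control library. Its log2 ratio of 0.65 ranked at position 80 of 11238 from the top. Of 2458 genes within 1.5-fold of its mean, 6 had a ratio at least as high. Of the 9 genes, SRXN1 shares the most sequence with another. In the GENCODE release 29 transcripts, 84.9% of its distinct 31-base words also lie in AL121758.1, a protein-coding gene annotated on the same strand, which was not analysed here. The FPKM of SRXN1 is therefore uncertain as a measure of this gene alone.

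TXNRD1 encodes the cytosolic thioredoxin reductase, a selenoprotein that passes electrons from NADPH to thioredoxin. It was at 120.1 FPKM in the A4368 library and 98.1 FPKM in the control library, a log2 ratio of 0.29. Of 809 genes of like level, 21 had a ratio at least as high. Fold for fold this was a smaller difference than that of ME1 or OSGIN1, but ratios also scatter less among abundant genes. The SD of the log2 ratio was 0.19 over the neighbours of TXNRD1 and 0.26 over those of OSGIN1. Under 1% of the sequence words of TXNRD1 (0.754%) occurred in another gene.

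The partners and relatives named here, TXN, PRDX1, TXNRD2 and TXNRD3, differed less than TXNRD1 and SRXN1. Some other thioredoxin and peroxide enzyme genes differed more than TXNRD1, among them NQO2 and TXNIP, with log2 ratios of 0.52 and -0.48. TXN, the thioredoxin that TXNRD1 reduces, was at 257 FPKM with A4368 and 253 FPKM in the control, and PRDX1, an abundant peroxiredoxin, at 717 and 714 FPKM in the same order. TXN and PRDX1 were picked after their values were seen, and 31.2% of the PRDX1 words occur in other genes. The mitochondrial reductase TXNRD2 was at 16.3 FPKM with A4368 and 16.2 FPKM in the control, and TXNRD3 at 4.39 and 3.95 FPKM in the same order. The proportion of TXNRD1 to TXN was 0.467 with A4368 and 0.387 in the control, and that of SRXN1 to PRDX1 was 0.0428 with A4368 and 0.0269 in the control. As TXN and PRDX1 differed little between the libraries, these proportions mainly restate the differences of the TXNRD1 and SRXN1 transcripts. They add nothing independent, and the enzymes themselves were not measured.

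NQO1, a quinone reductase widely used as a marker of NRF2 activity, went the other way. It was at 63.0 FPKM in the A4368 library and 73.7 FPKM in the control library, a log2 ratio of -0.22. Of 1191 genes of like level, 171 had a ratio at least as low, so a difference of this size was not rare among its neighbours. Within the libraries, SRXN1 stood at 0.487 of the NQO1 FPKM with A4368 and at 0.261 in the control, and TXNRD1 at 1.91 times NQO1 with A4368 and 1.33 times in the control. SRXN1 and NQO1 had the highest and the lowest log2 ratio of the 9 genes, so their proportion had to differ. These targets of one factor did not keep step in this pair of libraries, and whether cultures would differ as much was not tested. In GENCODE, 15.8% of the sequence words of NQO1 also lie in AC092115.2, an antisense gene. The strandedness of the libraries is not given in the sources used here, so reads of the sequence that both genes share cannot be told apart.

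The related quinone reductase gene NQO2 was higher, at 37.4 FPKM with A4368 and 25.8 FPKM in the control, or 1.45-fold. The proportion of NQO1 to NQO2 was 1.68 with A4368 and 2.85 in the control. As NQO1 was lower and NQO2 higher, this proportion had to differ and adds nothing independent. OSGIN1, which encodes an oxidative stress induced growth inhibitor, was the lowest of the 9 in both libraries. It was at 13.7 FPKM with A4368 and 9.27 FPKM in the control, a log2 ratio of 0.51, and 35 of 2749 genes of like level had a ratio at least as high. Its relative OSGIN2 was at 20.2 FPKM with A4368 and 21.1 FPKM in the control. In GENCODE, 12.9% of the OSGIN1 words are shared with AC009119.2, an overlapping gene on the same strand.

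**Figure D3:**
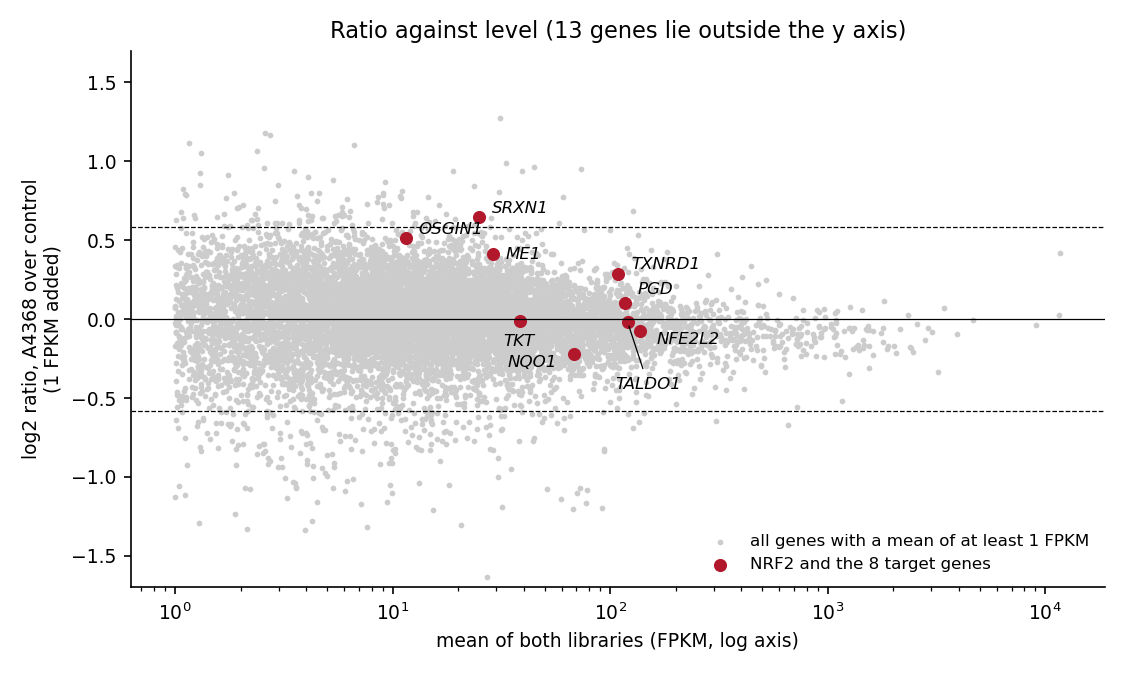
Log2 ratio of A4368 over control (1 FPKM added to each) against the mean of both libraries in FPKM on a log axis, for 11238 genes in grey and the 9 genes in red. Dashed lines mark 1.5-fold, and 13 genes lie outside the y axis. SRXN1 is the single red point beyond the dashed line, OSGIN1, ME1 and TXNRD1 lie near the upper edge of the cloud at their level, and the other 5 lie within it.

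Of the genes for NADPH supply, ME1 differed more than PGD, TALDO1 and TKT. ME1, the cytosolic malic enzyme, which makes NADPH while turning malate into pyruvate, was at 33.1 FPKM in the A4368 library and 24.7 FPKM in the control library. Its log2 ratio was 0.41, and 50 of 2318 genes of like level had a ratio at least as high. No 31-base word of ME1 occurred in another gene of the GENCODE transcripts. The mitochondrial malic enzyme ME2 was at 13.7 FPKM with A4368 and 11.1 FPKM in the control, or 1.24-fold higher, and ME3 had no value.

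PGD, the 6-phosphogluconate dehydrogenase of the oxidative arm, was at 121.2 FPKM in the A4368 library and 112.7 FPKM in the control library. Its log2 ratio was 0.10, and 116 of 753 genes of like level had a ratio at least as high, so it lay within the common range. Of its words, 9.50% occur in the pseudogene PGDP1. TALDO1, the transaldolase of the non-oxidative arm, was at 119.4 FPKM with A4368 and 121.1 FPKM in the control. TKT, the transketolase of that arm, was at 38.2 FPKM with A4368 and 38.6 FPKM in the control. Their log2 ratios of -0.02 and -0.01 as deposited were each 0.03 after the rescaling, so neither gene had a direction.

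The order of the 9 levels was similar in both libraries. This order compares genes only if the values are FPKM, which are per length, as they were read here. With A4368 it ran NFE2L2, PGD, TXNRD1, TALDO1, NQO1, TKT, ME1, SRXN1, OSGIN1. In the control it ran NFE2L2, TALDO1, PGD, TXNRD1, NQO1, TKT, ME1, SRXN1, OSGIN1. The places of PGD, TXNRD1 and TALDO1 were thus the ones that moved, and with A4368 these 3 lay between 119.4 and 121.2 FPKM and cannot be ordered. The 3 lowest genes, OSGIN1, SRXN1 and ME1, had the 3 highest ratios. With 2 libraries no likeness of pattern between genes can be measured.

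The genes around the 9 were described with 5 lists. These were chosen with earlier results of these data known, so their shares beside all genes are descriptions and not independent comparisons. The control list of NRF2 held 15 genes, all measured, of which 6 (40.0%) were higher and 9 lower, with a median log2 ratio of -0.05. After the rescaling 7 (46.7%) were higher, and the shares over all genes were 52.0% as deposited and 60.9% rescaled. NFE2L3, a related factor, was 1.59-fold lower, at 7.67 FPKM with A4368 and 12.2 FPKM in the control. On the log2 scale it was the single member past 1.5-fold, and it lay within that limit after the rescaling. MAFF, a small MAF partner that also answers inflammatory signals, was 1.57-fold lower, at 3.30 FPKM with A4368 and 5.19 FPKM in the control. SQSTM1, an autophagy receptor that binds KEAP1 and is itself an NRF2 target, was 1.33-fold higher, at 354 FPKM with A4368 and 266 FPKM in the control. NFE2L1, another relative, was at 81.3 and 75.2 FPKM in the same order.

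The rest of the pentose phosphate pathway was described with 11 genes, of which 9 had values. Of these 6 (66.7%) were higher and 3 lower both as deposited and after the rescaling, against 52.0% and 60.9% of all genes. Their median log2 ratio was 0.08, or 0.13 after the rescaling, beside 0.01 and 0.06 for all genes, and none passed 1.5-fold on either scale. PGLS, the lactonase that supplies the substrate of PGD, was at 44.1 FPKM with A4368 and 38.7 FPKM in the control, and PRPS1 at 33.6 and 30.7 FPKM in the same order. PRPS2, which like PRPS1 makes the nucleotide precursor phosphoribosyl pyrophosphate, had the lowest ratio, at 13.8 FPKM with A4368 and 15.4 FPKM in the control. The transketolase-like genes TKTL1 and TKTL2 had no value. Other NADPH sources had values for 9 of 12 genes, with 5 (55.6%, near the 52.0% of all genes) higher, 4 lower and a median of 0.08. IDH1, the cytosolic isocitrate dehydrogenase, was at 185.6 FPKM with A4368 and 157.7 FPKM in the control. The mitochondrial IDH2, named after its value was seen, was at 72.3 FPKM with A4368 and 83.7 FPKM in the control. IDH1 stood at 2.57 times IDH2 with A4368 and 1.88 times in the control. As IDH1 was higher and IDH2 lower, this proportion had to differ. NADK2, the mitochondrial kinase that makes NADP, was 1.21-fold lower, at 74.6 FPKM with A4368 and 90.5 FPKM in the control.

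Of 30 thioredoxin and peroxide enzyme genes, 29 averaged 1 FPKM or more. They were divided into 16 higher (55.2%, against 52.0% of all genes) and 13 lower, with a median of 0.01 and none past 1.5-fold. After the rescaling 19 were higher (65.5%, against 60.9% of all genes), so both shares were near the background. Beside NQO2, the largest absolute ratios were those of TXNIP, the inhibitor of thioredoxin, and MSRA, a methionine sulfoxide reductase. TXNIP was 1.43-fold lower, at 14.4 FPKM with A4368 and 20.6 FPKM in the control. MSRA was 1.35-fold higher, at 11.2 FPKM with A4368 and 8.30 FPKM in the control.

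Other NRF2 targets had values for 30 of 40 genes above the filter. Of these 21 (70.0%) were higher and 9 lower, with a median of 0.13, and 22 (73.3%) were higher after the rescaling, against 52.0% and 60.9% of all genes. As this list was chosen with earlier results of these data known, its share is no independent comparison. On the log2 scale 1 was higher and 2 were lower by at least 1.5-fold, as 1.08% and 2.12% of all genes were. PANX2, a pannexin gene, was 1.84-fold higher, at 5.16 FPKM with A4368 and 2.80 FPKM in the control. GPX2, a glutathione peroxidase of the gut and liver, was 1.97-fold lower, at 23.6 FPKM with A4368 and 46.5 FPKM in the control. UGT1A6, a glucuronosyltransferase whose sequence is 61.8% shared, was 1.71-fold lower.

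**Figure D4:**
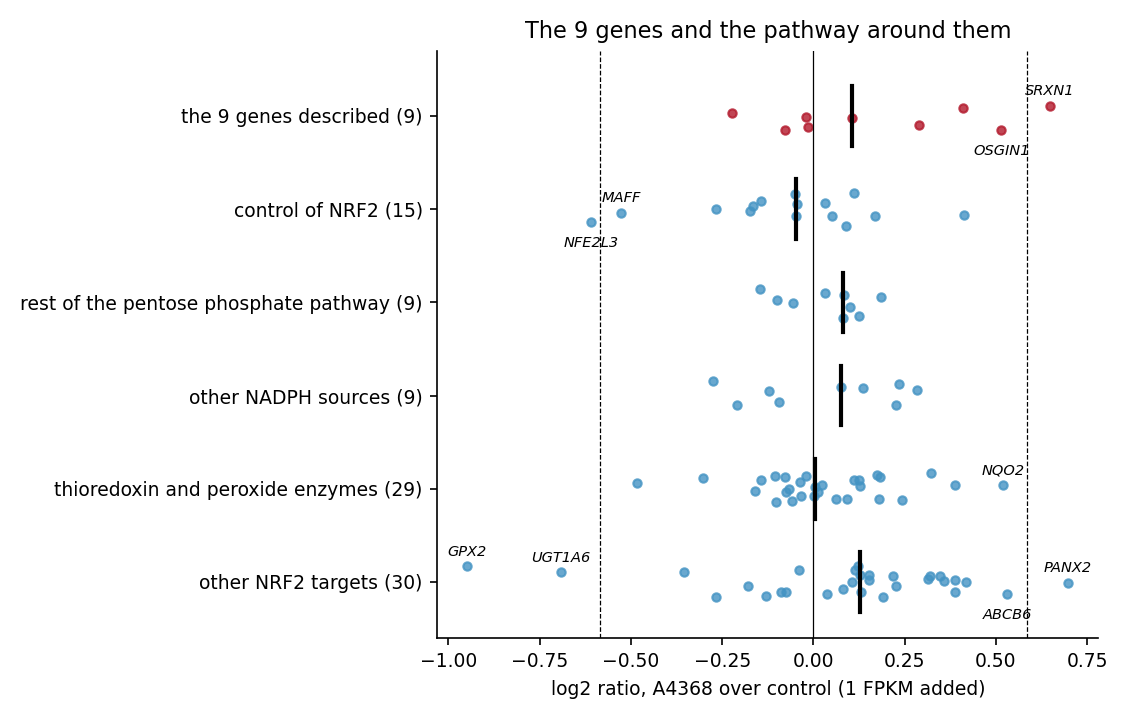
Log2 ratio of A4368 over control (1 FPKM added) on the x axis for the 9 genes in red and the 5 lists in blue, 1 point for each gene, with the number of genes in brackets, a black bar at the median and dashed lines at 1.5-fold. Genes with an absolute ratio of at least 0.5 are named. The medians lie between -0.05 for the control of NRF2 and 0.13 for the other NRF2 targets.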

How the data were processed

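RNA-seq of 1 A4368-treated and 1 untreated Hep3B culture was read from 1 deposited table. Per the submitters' processing notes, the tools included Bowtie2 2.2.3, TopHat2 2.0.12 and Cufflinks, and the build was hg19. The table header names no unit, and the deposited values, which are not whole numbers, were read as FPKM. Of 24302 lines, 11511 held values. For the annotation, the strandedness and the depth nothing is stated in the labels, and values therefore carry no counting interval. Genes with a mean under 1 FPKM (273) were left out, which kept 11238 and all 9 members. Coordinates are given only for RefSeq promoters on GRCh38.p14. Shared sequence and GC content came from GENCODE release 29 transcripts. Motif shares covered the 82.9% of kept genes that matched a promoter window by symbol or synonym.

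The members and lists were chosen with earlier results of these data known. Genes named were the 9 members, partners fixed with the rule (relatives and KEAP1) and, from each list, those past 1.5-fold or, where under 3 passed, the 3 largest absolute ratios. TXN, PRDX1 and IDH2 were added after their values were seen. Of the genes this rule takes, 1 is not reported here. The ratio computation was tested on simulated data. Python 3.11.15, numpy 2.4.6, pandas 2.3.3 and matplotlib 3.10.9 were used. Alternatives were another pseudocount (0.1 or 5), the unfiltered table, a minimum mean of 5 FPKM, centring on the median, rescaling, and limits of 0.32 and 1 log2 units, and, added after seeing the data, centring within 20 bins of GC content.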

Additional observations from a re-analysis of the deposited data

How the results depend on the processing

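With 1 library of each kind nothing measures the spread between cultures, and the alternatives show only how the arithmetic moves the values. The number of members higher by the limit, 1 as reported, was 0 with a pseudocount of 5, where the log2 ratio of SRXN1 was 0.56, was 3 at a limit of 0.32 log2 units and 0 at 2-fold. TALDO1 had a log2 ratio of 0.0304 after the rescaling and 0.0067 within bins of GC content, and TKT had 0.0341 and 0.0154, so both turned direction there. The other 7 members kept their direction under every alternative run. Their log2 ratios ranged between 0.56 and 0.69 for SRXN1, 0.39 and 0.56 for OSGIN1, 0.36 and 0.46 for ME1, 0.28 and 0.34 for TXNRD1, 0.10 and 0.15 for PGD, -0.08 and -0.03 for NFE2L2, and -0.23 and -0.17 for NQO1. The rescaling put the median of all genes at 0.06, against 0.01 as deposited. Of all genes past 1.5-fold, 33.7% were higher as deposited and 44.8% after it. No paired analysis was possible because each group has 1 library.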
